A study of Mus musculus with 15 samples.

Results

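Selenoproteins are proteins that carry selenocysteine, and the genes described here are those that encode them in the mouse together with the genes that make, decode, release or bind selenium. They were chosen by symbol from a list of 34 genes, all of which were found among the 55849 genes of the expression table. The list was drawn up because the compound given to the treated mice has Se in its name. Of the 34 genes, 24 encode a selenoprotein and 10 encode handling or binding proteins. In all, 30 genes passed the filter of a mean of at least 1 TPM (a length-corrected share of the transcripts of a library) and were tested, 20 of them selenoprotein genes.

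Bulk RNA sequencing was done on mouse liver in 15 libraries. The treated group had 5 libraries from mice given KSL0608-Se and irradiation, the aged group had 5 libraries from aged control mice, and the young group had 5 libraries from young control mice. The title of the series speaks of senolysis, the removal of senescent cells, switched on by light. The labels give no age for the treated mice, no age in numbers, sex, strain, dose, light setting or interval for any group, and no treatment for the controls, and they do not say what Se stands for or whether each library came from a separate animal. The p-values below thus reflect only how these libraries vary, and that variation may be technical. No group had the compound or the irradiation alone, and the age of treated mice is not given, so these cannot be told apart. With bulk tissue, fewer cells of a type and less RNA per cell cannot be told apart.

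Selenocysteine is inserted at a UGA codon, which elsewhere ends translation. A stem-loop in the 3′ untranslated region of the mRNA (the SECIS element), its binding protein, a dedicated elongation factor and a dedicated tRNA together recode that UGA. Most selenoproteins with a known function are redox enzymes with selenocysteine in the active site. The liver takes up dietary selenium and exports it in selenoprotein P, a plasma protein that feeds other organs. When selenium is short, the mRNAs of some selenoproteins, glutathione peroxidase 1 among them, are known to be lost before those of others.

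The feature that defines the 24 selenoprotein genes was read from transcript sequences of GENCODE M21 (GRCm38). All 24 had an in-frame TGA inside the coding sequence. In 22 genes there was 1 such codon, Dio2 had 2 and Selenop had 10. In 8 genes (Txnrd1, Txnrd2, Txnrd3, Dio2, Selenop, Selenok, Selenos and Selenoo) such a codon lay among the last 5 codons. The windows below show the 30 bases around the codon for some of the genes described further on. The codon for selenocysteine is in capitals, and for Selenop the first of its codons is shown.
Gpx1: gtcgcgtctctcTGAggcaccacgatccgg
Gpx3: gtagccagctacTGAggtctgacagaccaa
Gpx4: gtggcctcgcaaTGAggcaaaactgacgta
Txnrd1: cagtctggctgcTGAggttaagccccagtg
Txnrd2: gtgactggttgcTGAggctaagtcaccatc
Dio1: ggcagttgcaccTGAccttcatttcttctc
Selenop: cttcaagccagcTGAtacttgtgtcttctg
Selenok: atggctggtggaTGAggaaggtaaatgtct
Selenos: tcatctggcggcTGAaactaagactcttgt
Selenow: tattgtggagctTGAggctataagcccaag
Sephs2: ggcatgaagggcTGAggctgcaaggtcccc
In Gpx1, on chromosome 9, the codon was number 47 of 201, so 154 codons follow it. In Gpx3, on chromosome 11, it was number 73 of 226, and in Gpx4, on chromosome 10, number 73 of 197. In Selenok, on chromosome 14, it was number 92 of 94, and in Selenos, on chromosome 7, number 189 of 190. In Selenos 1 codon thus lies between it and the stop codon.

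Genes of liver cells marked the tissue as labelled. The 13 hepatocyte markers had a mean log2(TPM + 1) of 10.72 to 11.10 in treated, 10.78 to 10.96 in aged and 10.88 to 11.34 in young libraries. Sequencing depth is not given by TPM and is unknown, so genes with no signal are described as listed at 0 and no counting interval was computed. Within a group, libraries correlated with r between 0.907 and 0.975 across genes. Over all 12168 tested genes, limma with Benjamini-Hochberg adjustment called 1 gene (0.00822%) between treated and aged livers, 132 (1.08%) between aged and young livers and 354 (2.91%) between treated and young livers at an adjusted p under 0.05. The split depended on scaling. Between treated and young livers 265 were higher (2.18%) and 89 lower (0.731%). Quantile normalization gave 252 higher and 322 lower genes there, and median-ratio scaling 339 higher and 313 lower. Between aged and young livers 113 were higher and 19 lower, while quantile normalization gave 78 higher and 41 lower genes and median-ratio scaling 97 higher and 40 lower. Quantile normalization also moved the median log2 difference of all genes between treated and young livers by -0.13, to -0.07, against 0.06 without it.

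Of the 30 tested genes, Gpx3 was the single one called in any comparison, and it was higher in treated than in young livers. No gene of the list was called between treated and aged livers or between aged and young livers. At an unadjusted p under 0.05, 2 genes were higher (Selenok and Selenos) and 1 lower (Selenbp1) in treated than in aged livers, which is 10.0% of the tested list against 4.41% of all genes (3.0% higher and 1.41% lower). Between aged and young livers 3 were higher (Gpx3, Selenom and Selenow) and 1 lower (Selenbp2), 13.3% against 8.72% of all genes (6.57% higher and 2.14% lower). Between treated and young livers 8 were higher and 3 lower, 36.7% against 17.8% (12.7% higher and 5.14% lower). Means were higher in treated than in aged livers for 13 of the 30 genes (49.8% of all genes), in aged than in young livers for 22 (59.2% of all genes) and in treated than in young livers for 15 (57.4% of all genes). The median log2 difference over the 30 genes was -0.07 between treated and aged livers (-0.000513 over all genes), 0.09 between aged and young livers (0.05 over all genes) and -0.01 between treated and young livers (0.06 over all genes). The treated livers are on both the first and the last of these comparisons, and the aged and young controls are each used in 2 of them, so the counts are not independent.

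**Figure D1:**
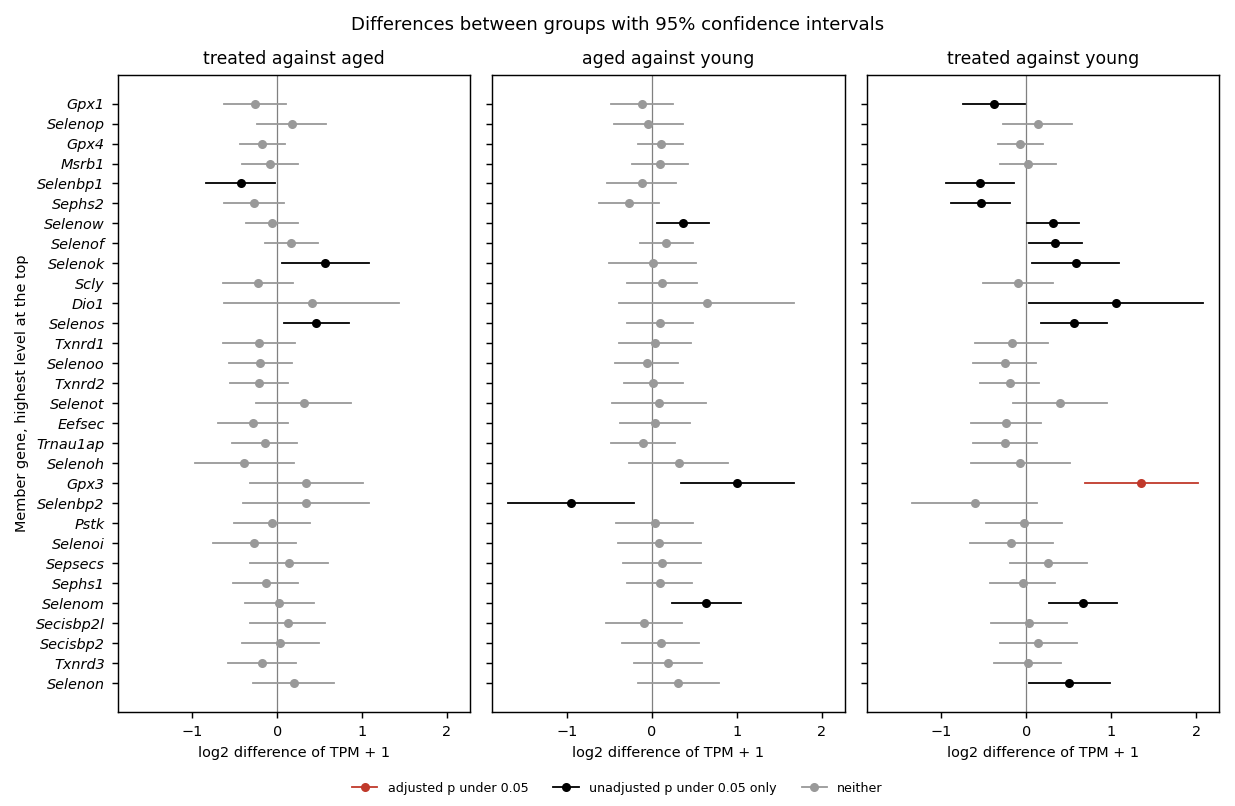
Differences in log2(TPM + 1) of the 30 tested genes between treated and aged (left), aged and young (middle) and treated and young livers (right), ordered from the highest mean TPM at the top to the lowest. Points are limma estimates over 5 libraries a group and lines are 95% confidence intervals. Gpx3, at 1.35 between treated and young livers, is the single gene with an adjusted p under 0.05 (red), and black marks an unadjusted p under 0.05 only.

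By level, Gpx1 and Selenop stood far above the rest, with means over the 15 libraries of 2772 and 2673 TPM. Gpx4 (407 TPM), Msrb1 (403 TPM), Selenbp1 (358 TPM), Sephs2 (336 TPM) and Selenow (221 TPM) came next, and Selenof (137 TPM) and Selenok (132 TPM) after them. Neighbours in this order such as Gpx1 and Selenop, or Gpx4 and Msrb1, did not differ beyond the spread of their libraries. Gpx4 had the smallest coefficient of variation over the 15 libraries of all tested genes of the list, and Dio1 the largest, at 96.6%. At the other end 4 genes fell under the filter. Gpx2, a peroxidase of the gut epithelium, reached at most 0.18 TPM and was listed at 0 in 4 libraries. Dio2, which activates thyroid hormone outside the liver, reached 0.03 TPM and was listed at 0 in 13 libraries. Dio3, which inactivates thyroid hormone, reached 0.58 TPM, and Selenov, a selenoprotein of the testis, was listed at 0 in all 15 libraries.

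**Figure D2:**
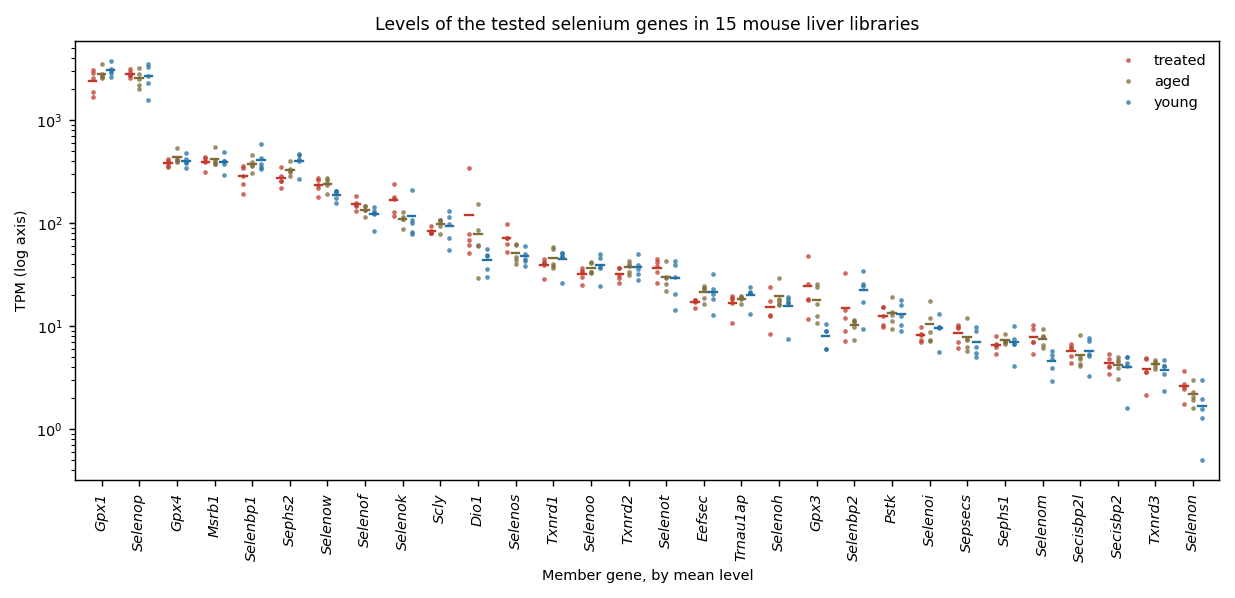
TPM in each of the 15 libraries (points, log axis) and the group means (short lines) for the 30 tested genes, from the highest mean on the left to the lowest on the right, with treated, aged and young libraries from left to right for each gene. Gpx1 and Selenop lie at 1583.72 TPM or more in every library.

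The glutathione peroxidases reduce hydrogen peroxide and lipid hydroperoxides with glutathione. Gpx1 encodes the abundant cytosolic enzyme. Gpx1 stood at 1690.26, 1870.49, 2556.44, 3086.78 and 2848.0 TPM in treated 1 to 5, at 2558.54, 2799.69, 3518.94, 2599.52 and 2683.08 TPM in aged 1 to 5, and at 3166.53, 2976.47, 3768.7, 2620.64 and 2839.51 TPM in young 1 to 5. The low values were those of treated 1 and treated 2, below every control library, while the other treated libraries lay within the range of the controls or just under it. The means were 2410 ± 608 TPM in treated, 2832 ± 395 TPM in aged and 3074 ± 436 TPM in young livers (SD, n = 5 each). The log2 difference was -0.26 between treated and aged livers (95% confidence interval -0.63 to 0.10, limma adjusted p = 0.925). It was -0.38 between treated and young livers, with a limma adjusted p of 0.258.

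Gpx3 (ENSMUSG00000018339) encodes the secreted plasma peroxidase, whose main source is the kidney. It stood at 47.77, 25.79, 18.05, 18.33 and 11.82 TPM in treated 1 to 5, at 25.73, 24.14, 12.55, 10.69 and 16.57 TPM in aged 1 to 5, and at 6.0, 6.06, 10.58, 8.94 and 9.01 TPM in young 1 to 5. Every treated and every aged library was above every young library, narrowly so for aged 4, and treated and aged libraries overlapped. Of all tested genes, 3.14% had every treated library above every young one and 2.8% had every aged library above every young one. In the list this held for Gpx3 in the first case and for Gpx3 and Selenom in the second. Treated livers averaged 24.4 ± 14.0 TPM, aged livers 17.9 ± 6.76 TPM and young livers 8.12 ± 2.02 TPM (SD, n = 5 each). The log2 difference between treated and young livers was 1.35 (SE 0.31, limma adjusted p = 0.0275). Between aged and young livers it was 1.01 (SE 0.31, limma adjusted p = 0.194), and between treated and aged livers 0.34 (SE 0.31, limma adjusted p = 0.925, 95% confidence interval -0.32 to 1.01).

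The call of Gpx3 between treated and young livers ended without treated 2 (limma adjusted p = 0.0768), young 1 (0.0639), young 2 (0.0737) or young 5 (0.0542), with no filter on low values (0.0879), after quantile normalization (0.0692) and after median-ratio scaling (0.0763). In those fits the log2 difference stayed between 1.26 and 1.39. Markers of several immune cell types also had higher values in treated than in young livers, where 2.18% of all genes were called higher. Of 9 tested monocyte and macrophage markers, 3 were called higher (Lyz2, Ly6c2 and Trem2), and the mean log2(TPM + 1) of the 10 listed was 2.73 to 4.54 in treated, 2.95 to 3.76 in aged and 1.66 to 2.74 in young libraries. Of 9 Kupffer cell markers (Kupffer cells are the resident macrophages of the liver), 2 were called higher (Clec4f and Vsig4), and their mean was 5.14 to 7.49 in treated, 5.60 to 6.18 in aged and 4.31 to 5.78 in young libraries. Of 8 tested B and plasma cell markers, 3 were called higher (Jchain, Ighm and Igkc), and the mean of the 9 listed was 2.36 to 5.09 in treated, 2.80 to 6.13 in aged and 0.93 to 1.15 in young libraries. As with Gpx3, every treated and every aged library was above every young one on that list. Gzmb was called among 10 tested T and NK cell markers, whose list had means of 0.91 to 2.40 in treated, 0.98 to 3.14 in aged and 0.77 to 0.99 in young libraries. Retnlg was called among 5 tested neutrophil markers, whose list had means of 1.11 to 2.49 in treated, 1.15 to 1.56 in aged and 0.55 to 1.39 in young libraries. None of these markers was at 0 throughout a group. Treated 1, the highest library in Gpx3 at 47.77 TPM, was the lowest treated library on each of these immune lists. It stood at 2.36 on the B and plasma cell markers and at 5.14 on the Kupffer cell markers. Of 13 hepatocyte markers, Cyp2e1 was called lower in treated than in young livers. The part of these cell types in the values of Gpx3 was not tested.

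Gpx4 encodes the enzyme that reduces lipid hydroperoxides within membranes and holds back ferroptosis, a form of cell death driven by lipid peroxidation. Gpx4 stood at 347.41, 398.51, 362.76, 422.07 and 387.08 TPM in treated 1 to 5, at 432.61, 534.99, 410.99, 402.47 and 392.92 TPM in aged 1 to 5, and at 387.04, 343.93, 417.89, 392.18 and 479.6 TPM in young 1 to 5. The 3 groups overlapped, and the highest value was that of aged 2. The log2 difference was -0.17 between treated and aged livers (95% confidence interval -0.44 to 0.09) and -0.07 between treated and young livers (-0.34 to 0.20).

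**Figure D3:**
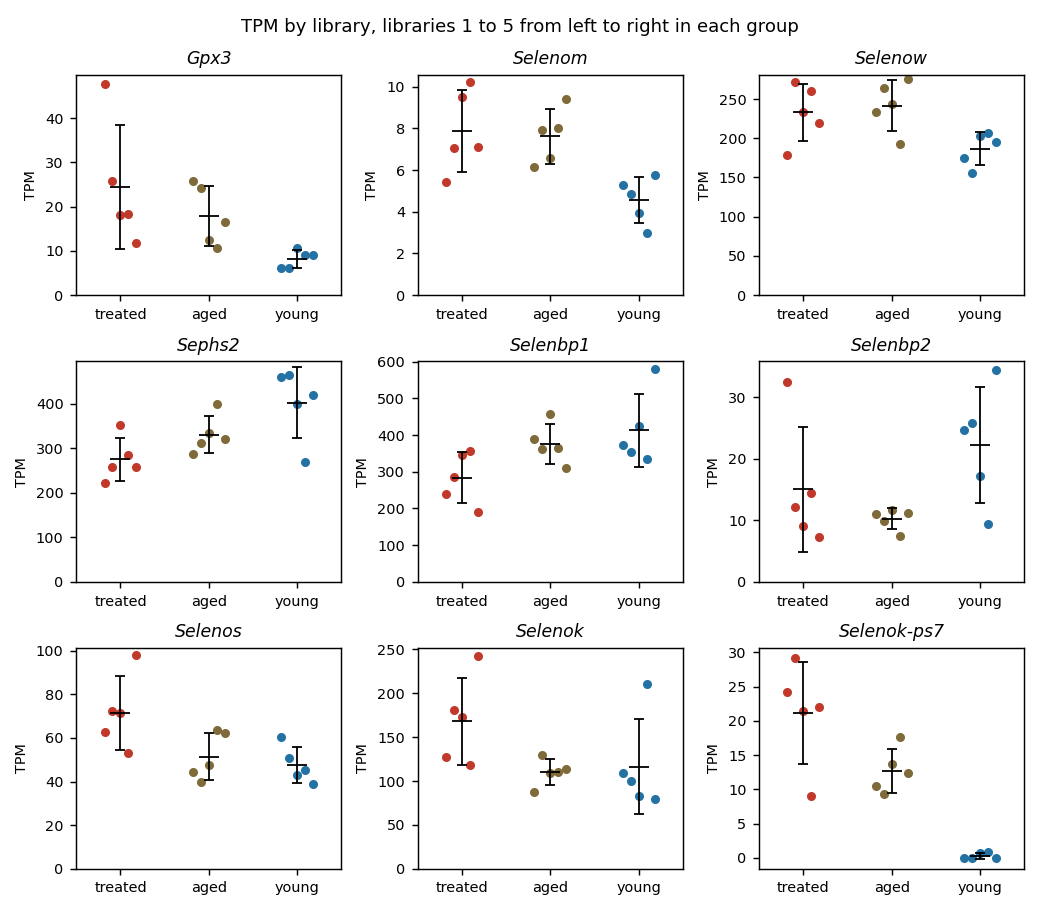
TPM by library for 8 genes of the list and the pseudogene Selenok-ps7, with treated libraries on the left, aged in the middle and young on the right of each panel. Each point is 1 library, and black lines mark the mean ± SD over 5 libraries. Gpx3 lies at 11.82 to 47.77 TPM in treated, 10.69 to 25.73 TPM in aged and 6.0 to 10.58 TPM in young libraries.

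The thioredoxin reductases regenerate thioredoxin with NADPH, Txnrd1 in the cytosol and Txnrd2 in mitochondria, while Txnrd3 is known mainly from the testis. Over the 15 libraries Txnrd1 ranged from 26.51 to 59.02 TPM, Txnrd2 from 26.33 to 50.75 TPM and Txnrd3 from 2.16 to 4.95 TPM. All 3 genes had lower means in treated than in aged livers, by log2 differences of -0.21, -0.22 and -0.17, and none reached an unadjusted p under 0.05 in any comparison. The interval for Txnrd1 between treated and aged livers was -0.64 to 0.21.

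Dio1, the deiodinase of the liver, converts thyroxine to the active hormone and clears reverse triiodothyronine. Dio1 stood at 341.71, 61.87, 51.84, 79.43 and 68.02 TPM in treated 1 to 5, at 153.27, 29.44, 60.3, 85.31 and 61.12 TPM in aged 1 to 5, and at 56.54, 49.12, 47.88, 36.26 and 30.13 TPM in young 1 to 5. Treated 1 was more than 4 times the next treated library, and the other 4 treated libraries lay within the range of the aged ones. The log2 difference between treated and young livers was 1.05 (95% confidence interval 0.03 to 2.08, limma adjusted p = 0.264) with treated 1 and 0.58 without it (limma adjusted p = 0.391). Between treated and aged livers it was 0.41 (95% confidence interval -0.62 to 1.44) with treated 1 and -0.07 without it. Of 12 tested genes that transport thyroid hormone or respond to it, 0 were called in any comparison. Me1, the hormone-responsive malic enzyme, averaged 122 ± 72.9 TPM in treated, 105 ± 47.6 TPM in aged and 44.6 ± 8.61 TPM in young livers (SD, n = 5 each), with a log2 difference of 1.26 between treated and young livers and a limma adjusted p of 0.088. Me1 was called in that comparison without treated 4 (limma adjusted p = 0.0382), without aged 5 (0.0435) and with library weights (0.0412). In all, Me1 was called there in 4 of 25 other settings, with limma adjusted p up to 0.192. Next by p in that comparison were Ttr, a plasma carrier of thyroid hormone, with a log2 difference of -0.58 (limma adjusted p = 0.0927), and Thra, a thyroid hormone receptor, with -0.73 (limma adjusted p = 0.162).

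Selenop encodes selenoprotein P, whose repeated selenocysteines carry selenium from the liver to brain and testis. Selenop stood at 3150.13, 2724.89, 2757.48, 2568.17 and 2897.99 TPM in treated 1 to 5, at 2813.52, 2484.13, 2177.49, 3191.02 and 2003.1 TPM in aged 1 to 5, and at 3278.58, 3484.43, 2675.48, 2297.72 and 1583.72 TPM in young 1 to 5. The treated libraries were the most alike, and all of them lay inside the range of the young ones. The means were 2820 ± 219 TPM in treated, 2534 ± 480 TPM in aged and 2664 ± 767 TPM in young livers (SD, n = 5 each). Between treated and aged livers the log2 difference was 0.17, with a 95% confidence interval of -0.24 to 0.58. The ratio of Gpx1 to Selenop was 0.537 to 1.20 in treated, 0.815 to 1.62 in aged and 0.854 to 1.79 in young libraries, lowest in treated 1 (0.537) and treated 2 (0.686).

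The 7 selenoproteins of the endoplasmic reticulum act in protein folding, in removal of misfolded proteins, in calcium handling and in phospholipid synthesis. None of the 7 was called. In treated against aged livers the mean was higher for 6 of the 7 (49.8% of all genes). Their median log2 difference was 0.19 (-0.000513 over all genes). In treated against young livers 6 of 7 means were higher (57.4% of all genes), with a median of 0.51 (0.06 over all genes). At an unadjusted p under 0.05, 5 of the 7 were higher (Selenof, Selenok, Selenom, Selenon and Selenos), as were 12.7% of all genes. The gene with the lower mean in both was Selenoi, which encodes an ethanolamine phosphotransferase, at -0.27 against aged and -0.18 against young livers. In aged against young livers all 7 means were higher (59.2% of all genes), by log2 differences from 0.01 for Selenok to 0.64 for Selenom. Those of Selenok, Selenos, Selenot and Selenoi changed sign in some of the other settings tried. The median there was 0.10 (0.05 over all genes).

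Selenok encodes a membrane protein that assists protein palmitoylation. Selenok stood at 127.45, 180.53, 172.91, 118.23 and 242.39 TPM in treated 1 to 5, at 87.93, 129.5, 108.99, 110.85 and 113.69 TPM in aged 1 to 5, and at 108.65, 100.43, 82.89, 210.81 and 79.13 TPM in young 1 to 5. The treated libraries were mostly above the controls, with an overlap through treated 1, treated 4 and aged 2, and young 4 stood well above the other young libraries. Treated exceeded aged livers by a log2 difference of 0.57 (SE 0.24, limma adjusted p = 0.925) and young livers by 0.58 (limma adjusted p = 0.221). Without young 4, Selenok was called higher in treated than in young livers (log2 difference 0.82, limma adjusted p = 0.0197). Of 15 fits that each left out 1 library, this 1 alone called it, and the limma adjusted p ran up to 0.449.

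Selenos encodes a membrane protein of the machinery that draws misfolded proteins out of the endoplasmic reticulum. Selenos stood at 62.76, 72.17, 71.53, 52.92 and 98.14 TPM in treated 1 to 5, at 44.43, 39.97, 47.4, 63.4 and 62.03 TPM in aged 1 to 5, and at 60.41, 50.74, 43.06, 45.48 and 38.78 TPM in young 1 to 5. Treated 4 lay within the controls and the other treated libraries at or above their upper end. The log2 difference was 0.46 between treated and aged livers (95% confidence interval 0.08 to 0.85, limma adjusted p = 0.925) and 0.56 between treated and young livers (0.18 to 0.95, limma adjusted p = 0.111). Treated 5 was the highest library in both Selenok and Selenos. It was also the highest on several marker lists, among them Kupffer cell (7.49), monocyte and macrophage (4.54) and neutrophil markers (2.49). Young 4, the next highest in Selenok at 210.81 TPM, was the lowest library on the Kupffer cell markers (4.31). The part of these cell types in the values of Selenok and Selenos was not tested.

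Selenom, a thioredoxin-fold protein of the endoplasmic reticulum, stood at 5.43, 7.04, 9.51, 10.22 and 7.12 TPM in treated 1 to 5, at 6.14, 7.9, 6.58, 8.02 and 9.43 TPM in aged 1 to 5, and at 5.27, 4.87, 3.96, 2.96 and 5.78 TPM in young 1 to 5. All aged libraries were above all young ones, and of the treated libraries treated 1 alone fell among the young. The log2 difference was 0.64 between aged and young livers (SE 0.19, limma adjusted p = 0.158) and 0.67 between treated and young livers (limma adjusted p = 0.0718). Between treated and young livers Selenom was called after quantile normalization (limma adjusted p = 0.0454), after median-ratio scaling (0.0308) and without treated 1 (0.0277). In all, it was called there in 5 of 25 other settings, with limma adjusted p up to 0.157. Selenom differed by 0.03 between treated and aged livers.

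Selenof, which binds the glucosyltransferase that checks glycoprotein folding, stood at 130.28, 146.44, 156.18, 151.04 and 182.0 TPM in treated 1 to 5, at 116.2, 133.75, 146.75, 135.62 and 147.02 TPM in aged 1 to 5, and at 142.47, 131.0, 126.95, 123.76 and 84.76 TPM in young 1 to 5. The groups overlapped, with treated 5 highest and young 5 lowest, and the log2 difference between treated and young livers was 0.34 (limma adjusted p = 0.232). Selenon, a selenoprotein linked to muscle disease in humans, stood at 1.78, 2.47, 2.79, 2.56 and 3.7 TPM in treated 1 to 5, at 1.62, 2.08, 2.31, 1.93 and 2.99 TPM in aged 1 to 5, and at 1.59, 1.29, 1.98, 0.5 and 2.99 TPM in young 1 to 5. These low values overlapped in all groups, and the log2 difference between treated and young livers was 0.51 (limma adjusted p = 0.248). Selenot, a further thioredoxin-fold protein, ranged from 14.38 to 45.09 TPM and Selenoi from 5.61 to 17.48 TPM, with no unadjusted p under 0.05.

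Among the non-selenoprotein partners of these proteins in quality control of the endoplasmic reticulum, 15 of 16 were tested and 0 were called in any comparison. In treated against aged livers 12 of the 15 means were higher (49.8% of all genes), with a median log2 difference of 0.16 (-0.000513 over all genes). Hsp90b1, a chaperone of the endoplasmic reticulum, averaged 303 ± 127 TPM in treated, 187 ± 56.5 TPM in aged and 192 ± 61.6 TPM in young livers (SD, n = 5 each), and its log2 difference between treated and aged livers was 0.66 with a limma adjusted p of 0.925. Pdia3, a disulfide isomerase, differed by 0.44 there, and Uggt1, the glucosyltransferase that Selenof binds, by 0.32, with the same limma adjusted p. In aged against young livers the median of the 15 was -0.01, and in treated against young livers it was 0.20.

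The remaining selenoproteins include Selenow, a small thioredoxin-fold protein. Selenow stood at 178.85, 271.91, 233.24, 260.79 and 220.01 TPM in treated 1 to 5, at 233.31, 264.38, 243.37, 192.31 and 275.42 TPM in aged 1 to 5, and at 174.67, 155.51, 203.18, 206.32 and 194.93 TPM in young 1 to 5. Treated 1 and aged 4 lay among the young libraries and all others above them. On the log2 scale the difference was 0.37 between aged and young livers (limma adjusted p = 0.414), 0.31 between treated and young livers (limma adjusted p = 0.275) and -0.06 between treated and aged livers.

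Msrb1, which repairs oxidized methionine, stood at 313.9, 427.78, 397.87, 438.06 and 396.93 TPM in treated 1 to 5, at 376.23, 377.92, 544.38, 391.26 and 413.04 TPM in aged 1 to 5, and at 402.49, 378.21, 494.33, 291.41 and 399.85 TPM in young 1 to 5. The groups overlapped nearly in full, and the log2 difference was -0.09 between treated and aged livers (95% confidence interval -0.41 to 0.24). Selenoh, a redox protein of the nucleolus, ranged from 7.56 to 29.56 TPM, and Selenoo, a mitochondrial enzyme that attaches AMP to proteins, from 24.86 to 50.11 TPM. Neither reached an unadjusted p under 0.05.

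Before selenium can enter a protein it is made into selenophosphate and loaded on the dedicated tRNA. Sephs2, the selenophosphate synthetase, is itself a selenoprotein. Sephs2 stood at 221.86, 257.24, 353.14, 285.19 and 257.87 TPM in treated 1 to 5, at 286.85, 311.16, 335.0, 398.65 and 320.93 TPM in aged 1 to 5, and at 459.64, 464.72, 399.28, 268.6 and 420.17 TPM in young 1 to 5. Young 4 was the lowest of the young, and the other young libraries were above all treated and all aged ones. The means were 275 ± 49.1 TPM in treated, 331 ± 41.9 TPM in aged and 402 ± 79.7 TPM in young livers (SD, n = 5 each). The log2 difference was -0.54 between treated and young livers (95% confidence interval -0.89 to -0.19, limma adjusted p = 0.0952) and -0.27 between treated and aged livers (-0.62 to 0.08). Without young 4 Sephs2 was called lower in treated than in young livers (log2 difference -0.68, limma adjusted p = 0.0106), as it was after quantile normalization (0.0497) and median-ratio scaling (0.00439). In all, Sephs2 was called there in 5 of 25 other settings, with limma adjusted p up to 0.213.

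The other genes of this step lay lower. Sephs1, a paralog of Sephs2 that lacks selenophosphate synthetase activity, ranged from 4.08 to 10.05 TPM, Pstk, the kinase that phosphorylates the serine-loaded tRNA, from 9.01 to 19.38 TPM, and Sepsecs, which then makes selenocysteine on the tRNA, from 5.01 to 11.94 TPM. In the decoding step Eefsec, the elongation factor, ranged from 12.81 to 32.13 TPM, Secisbp2, which binds the SECIS element, from 1.62 to 5.38 TPM, its paralog Secisbp2l from 3.30 to 8.31 TPM, and Trnau1ap, which binds the tRNA, from 10.74 to 24.10 TPM. None of these 7 genes reached an unadjusted p under 0.05 in any comparison. Their log2 differences between treated and aged livers ran from -0.28 for Eefsec to 0.14 for Sepsecs. Pstk overlaps Fgfr2 on the opposite strand in GENCODE M21, Fgfr2 stood at 42.3 to 281 TPM, and whether reads were counted by strand is not given in the sources used here.

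Scly releases selenium from selenocysteine for reuse. Scly stood at 80.88, 79.95, 83.21, 94.62 and 80.9 TPM in treated 1 to 5, at 108.7, 78.15, 106.53, 105.29 and 94.24 TPM in aged 1 to 5, and at 97.89, 72.06, 114.26, 54.95 and 132.03 TPM in young 1 to 5. The treated libraries lay close together within the range of the young ones, and the log2 difference was -0.22 between treated and aged livers and -0.10 between treated and young livers.

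Of 26 further genes that take part in decoding of selenocysteine or in selenium and methyl metabolism, 22 were tested. Between treated and aged livers and between aged and young livers 0 were called, and between treated and young livers 2 were called lower and 0 higher (0.731% and 2.18% of all genes). Ahcy hydrolyses S-adenosylhomocysteine and its selenium analogue. Ahcy fell to 873 ± 155 TPM in treated livers, against 1518 ± 218 TPM in young livers, with 1173 ± 171 TPM in aged livers (SD, n = 5 each), a log2 difference of -0.80 between treated and young livers (SE 0.15, limma adjusted p = 0.00872). Inmt encodes a methyltransferase that methylates small selenium and sulfur compounds for excretion. Inmt averaged 395 ± 135 TPM in treated, 569 ± 107 TPM in aged and 764 ± 61.7 TPM in young livers (SD, n = 5 each), a log2 difference of -1.02 between treated and young livers (SE 0.21, limma adjusted p = 0.0138). The calls of both genes held in all 25 other settings tried. Against aged livers, treated livers differed by -0.43 for Ahcy and -0.58 for Inmt on the log2 scale, each with a limma adjusted p of 0.925. Mat1a, which makes S-adenosylmethionine in the liver, averaged 953 ± 153 TPM in treated, 1190 ± 145 TPM in aged and 1605 ± 423 TPM in young livers (SD, n = 5 each), with a log2 difference of -0.72 between treated and young livers that was not called (limma adjusted p = 0.0502). Mat1a was called in 7 of 25 other settings, among them quantile normalization (limma adjusted p = 0.0331), median-ratio scaling (0.00645), library weights (0.0037) and the fit without young 4 (0.00251). Of the 13 hepatocyte markers, 1 was called lower (Cyp2e1) and 0 higher in treated than in young livers, with a median log2 difference of -0.37, and their part in the values of Ahcy and Inmt was not tested.

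The partners of the peroxidases and thioredoxin reductases, 24 tested genes of the glutathione and thioredoxin systems, held 1 called gene, higher in treated than in young livers (2.18% of all genes), and 0 in the other comparisons. G6pdx, which supplies the NADPH these enzymes use, averaged 8.44 ± 2.44 TPM in treated, 6.84 ± 1.10 TPM in aged and 4.30 ± 1.32 TPM in young livers (SD, n = 5 each), a log2 difference of 0.84 between treated and young livers (SE 0.21, limma adjusted p = 0.0431). That call ended in 14 of 25 other settings, with limma adjusted p up to 0.128. In 11 of those 14, 1 library had been left out, and the value ran from 0.0505 without young 5 to 0.128 without treated 5. Between treated and aged livers the smallest unadjusted p belonged to Gclc, the catalytic subunit of the rate-limiting enzyme of glutathione synthesis, to Prdx1, a peroxiredoxin that thioredoxin reduces, and to Cat. Gclc averaged 50.0 ± 7.65 TPM in treated and 77.2 ± 10.5 TPM in aged livers, and Prdx1 averaged 862 ± 150 TPM in treated and 593 ± 70.3 TPM in aged livers (SD, n = 5 each). Cat, which breaks down hydrogen peroxide, averaged 969 ± 115 TPM in treated and 1168 ± 184 TPM in aged livers. All 3 had a limma adjusted p of 0.925. Of the homologues that carry cysteine in place of selenocysteine, 4 of 6 were tested (Gpx7, Gpx8, Msrb2 and Msrb3), and 0 were called in any comparison.

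Selenbp1 and Selenbp2 bind selenium without carrying selenocysteine. Selenbp1 is a methanethiol oxidase of the liver. Selenbp1 stood at 240.07, 286.39, 346.94, 356.74 and 190.65 TPM in treated 1 to 5, at 390.45, 361.06, 456.3, 363.64 and 308.98 TPM in aged 1 to 5, and at 372.3, 354.11, 425.69, 335.45 and 581.25 TPM in young 1 to 5. Treated 1, treated 2 and treated 5 were below every control library and the other 2 treated libraries were at the low end of the controls. Treated livers averaged 284 ± 70.5 TPM, aged livers 376 ± 53.7 TPM and young livers 414 ± 99.5 TPM (SD, n = 5 each). For Selenbp1 the log2 difference was -0.43 between treated and aged livers (95% confidence interval -0.83 to -0.03, limma adjusted p = 0.925) and -0.55 between treated and young livers (-0.95 to -0.15, limma adjusted p = 0.135).

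Selenbp2 is a close copy of Selenbp1. Selenbp2 stood at 32.58, 12.18, 9.02, 14.38 and 7.24 TPM in treated 1 to 5, at 11.12, 9.96, 11.64, 7.42 and 11.24 TPM in aged 1 to 5, and at 24.62, 25.91, 17.3, 9.4 and 34.38 TPM in young 1 to 5. Treated 1 alone reached the upper young values, and young 4 alone lay among the aged ones. The log2 difference between aged and young livers was -0.95 (95% confidence interval -1.69 to -0.21, limma adjusted p = 0.357). Leaving out young 4, aged 5 and treated 1 at once gave -1.25, with a limma adjusted p of 0.0142. Selenbp2 was called in that comparison in 2 of 25 other settings. Of 15 fits that each left out 1 library, 0 called it (limma adjusted p of 0.0998 or more). The coding sequences of the 2 genes are identical at 1398 of 1416 bases (98.7%), so how reads were shared between them is uncertain. When both were added up, the log2 difference was -0.39 between treated and aged livers and -0.55 between treated and young livers (limma adjusted p = 0.132).

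The mRNAs of all 24 selenoprotein genes were added up. The sum was 6761.52, 6615.42, 7332.21, 7669.89 and 7784.76 TPM in treated 1 to 5, 7304.69, 7301.96, 7813.61, 7810.85 and 6675.13 TPM in aged 1 to 5, and 8450.08, 8336.58, 8464.12, 6631.03 and 6367.92 TPM in young 1 to 5. Young 1, young 2 and young 3 were above all other libraries and young 4 and young 5 were among the lowest, so that the groups overlapped. The mean was 7233 ± 527 TPM in treated, 7381 ± 470 TPM in aged and 7650 ± 1056 TPM in young livers (SD, n = 5 each), differences smaller than the spread within the young group. As a share of all transcripts this was 0.723% in treated, 0.738% in aged and 0.765% in young livers. Gpx1 and Selenop together made up 69.5% to 73.8% of the sum in treated, 70.2% to 74.1% in aged and 69.5% to 77.5% in young libraries. Without Gpx1, Selenop and Gpx4 the sum averaged 1619 TPM in treated, 1581 TPM in aged and 1507 TPM in young livers.

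**Figure D4:**
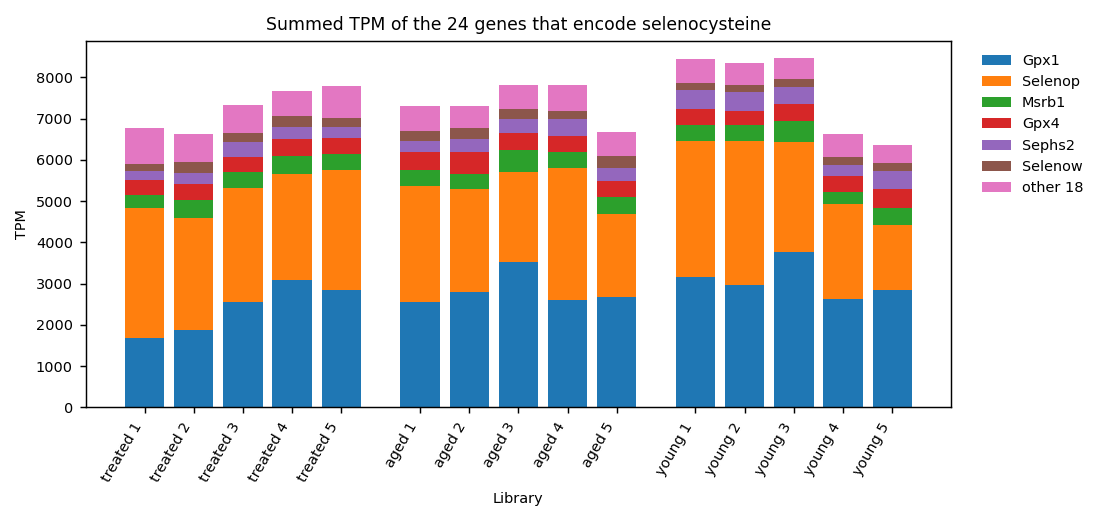
Summed TPM of the 24 selenoprotein genes in each library, stacked by gene with the 18 lesser genes as 1 block, for treated (left), aged (middle) and young libraries (right). Bars start at 0, and the sums range from 6367.92 TPM in young 5 to 8464.12 TPM in young 3.

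Selenok has a processed pseudogene, Selenok-ps7, which was singled out after its values were seen. It lies on chromosome 5 (GRCm38), is 283 bases long and matches the Selenok coding sequence at 269 of 282 aligned bases (95.4%). The 21 bases around the selenocysteine codon of Selenok were the same in the pseudogene.
Selenok-ps7: atggctggtggaTGAggaagg
How reads were shared between the gene and its pseudogene is uncertain, so the values of both depend on the authors' estimate. Selenok-ps7 stood at 24.18, 29.12, 21.47, 9.05 and 22.04 TPM in treated 1 to 5, at 10.52, 9.34, 13.64, 17.67 and 12.44 TPM in aged 1 to 5, and at 0, 0, 0.74, 0.8 and 0 TPM in young 1 to 5. Every treated and every aged library was above every young one, and 3 young libraries were listed at 0. The log2(TPM + 1) difference was 4.05 between treated and young livers (limma adjusted p = 2.12e-07) and 3.42 between aged and young livers (limma adjusted p = 2.32e-06), while between treated and aged livers it was 0.63 (limma adjusted p = 0.925). The first 2 calls held in all 25 other settings.

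The pattern of the pseudogene differed from that of Selenok itself, whose log2 difference between aged and young livers was 0.01 (95% confidence interval -0.51 to 0.53). The nearest protein-coding genes on the same strand are cytochromes of the Cyp3a family. Cyp3a41b, 38.4 kb away, stood at 1639 to 3322 TPM in treated, 1196 to 2585 TPM in aged and 51.9 to 1135 TPM in young libraries. Cyp3a44, 150.6 kb away, stood at 355 to 552 TPM in treated, 177 to 516 TPM in aged and 1.97 to 14.1 TPM in young libraries. The part of these neighbours in the pseudogene's values was not tested. When Selenok and Selenok-ps7 were added up, a step chosen after seeing the data, the log2 difference was 0.58 between treated and aged livers, 0.16 between aged and young livers and 0.75 between treated and young livers (limma adjusted p = 0.111).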

How the data were processed

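The tools were fastp, HISAT and RSEM with GRCm39 as the build, per the submitters' processing notes, and no versions are given there. The authors deposited TPM values, which correct for gene length and sum to 999999 to 1000001 in a library, so depth and its precision are unknown. Groups came from the labels. The authors' 3 group-mean columns were not used.

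Expression was analysed as log2(TPM + 1) where the mean over 15 libraries was 1 TPM or more, a scale that understates changes of low genes. limma 3.58.1 (R 4.3.3) fitted the 3 groups in one model with trend and robust variances, and p-values were Benjamini-Hochberg adjusted over 12168 genes. Calls are at an adjusted p under 0.05. The script was tested on simulated data. The genes, lists and tests were chosen with earlier results of these data known. Values per library are given for genes with an unadjusted p under 0.05 in any comparison and for the 10 highest. From pathway lists and cell markers, called genes are named, and from pathway lists without one the 3 with the smallest p in the comparison described.

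Alternatives were other pseudocounts (0.1 and 5), filters (none and 5 TPM), scalings, library weights, a replicate block, fits of 2 groups and fits without libraries. Sequences came from GENCODE M21 transcripts (GRCm38), read with Biopython 1.88. Protein sequences and promoters were not used.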

Additional observations from a re-analysis of the deposited data

Results flagged for a closer look

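In each gene and group of 5 libraries, the highest or lowest library was set against the others with Dixon's criterion (a gap of more than 0.71 of the range). Of 90 groups, 13 held a library that stood apart, where chance gives about 1 in 20, or 4.5, for normally distributed values. TPM values need not be so distributed, and genes of the same library are not independent. The 13 thus cannot be read as a surplus over chance. Of the 13, 5 were in young 4. Selenok stood at 210.81 TPM in young 4 against at most 108.65 TPM in the other young libraries. Txnrd1 (26.51 TPM), Selenoh (7.56 TPM), Secisbp2 (1.62 TPM) and Trnau1ap (13.19 TPM) were lowest in young 4, against at least 47.55, 16.71, 4.09 and 21.16 TPM in the other young libraries. Young 4 was also the lowest library on the monocyte and macrophage (1.66), Kupffer cell (4.31) and endothelial cell markers (2.71, in mean log2(TPM + 1)).

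In treated 1, Dio1 stood at 341.71 TPM against 51.84 to 79.43 TPM in the other treated libraries, and Selenbp2 at 32.58 TPM against 7.24 to 14.38 TPM. Scly stood at 94.62 TPM in treated 4 against 79.95 to 83.21 TPM. Among aged libraries, aged 3 was high in Gpx1 (3518.94 TPM against at most 2799.69) and Msrb1 (544.38 TPM against at most 413.04). Gpx4 was high in aged 2 (534.99 TPM against at most 432.61), Secisbp2l in aged 4 (8.31 TPM against at most 5.02) and Selenoh in aged 5 (29.56 TPM against at most 18.33).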

How the results depend on the processing

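Between treated and aged livers, 0 genes of the list were called in any of the settings tried. Between aged and young livers 0 were called, but 1 (Selenbp2) with library weights (log2 difference -1.10, limma adjusted p = 0.0289) and 1 without young 4, aged 5 and treated 1 together. Between treated and young livers the count of 1 became 0 with no filter on low values, 2 after quantile normalization, 2 after median-ratio scaling (Selenom and Sephs2 in both), 6 with library weights and 6 when young 4, aged 5 and treated 1 were all left out (Gpx3, Selenok, Selenom, Selenow, Sephs2 and Selenbp2 in both). With 1 library left out at a time it ran from 0 to 3. Gpx3 was called in 18 of 25 alternatives, with limma adjusted p from 0.00803 to 0.0879. Of 2241 recomputed differences of the listed genes, 118 had another sign than the value reported, and none of those was called.

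Most same-numbered libraries did not deviate together (correlations of -0.25 to 0.31 over 15 pairs, 4 over 0.1, and 4 of 15 libraries closest to their own number). The highest correlation, 0.31, was that of treated 1 and aged 1. These libraries were also the highest of their groups in Dio1 and in Gpx3. Young 1 was the highest young library in Dio1 and the lowest in Gpx3. With the replicate number as a block, 0, 0 and 1 genes of the list were called in the 3 comparisons, and 373 of all genes between treated and young livers. Me1 was then called in that comparison (limma adjusted p = 0.0379). Over all genes, that count ran up to 1538 with library weights, against 354. It was 188 of 27110 tested genes with no filter on low values and 217 of 7288 with a filter at 5 TPM, against 354 of 12168. The counts under these filters are thus over unlike numbers of genes, and other causes of the differences were not tested. Leaving out Selenop, Gpx1 and Gpx4 lowered the summed selenoprotein TPM by construction, to 1619.07 in treated, 1580.65 in aged and 1507.46 in young livers. Depth is unknown, so the precision of the genes under about 5 TPM cannot be judged from counting error.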
